A study of Mus musculus with 8 samples.

Results

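Genes of DNA replication and mitosis were followed on arrays of cells sorted as colon endothelium from mice on day 2 after a bone marrow transplant. Of 42 listed genes 40 were measured, among 22180 genes in all, by the probe set that carried that gene's symbol and no other. They comprised 13 genes of S phase and of entry into it, and 27 genes of G2 and mitosis (G2/M). Ccnb1 and Ccne2 were not analysed here. Allogeneic recipients (4 arrays) were female C57BL/6 mice that received bone marrow and T cells from LP/J donors, in which graft-versus-host disease can follow. Syngeneic recipients (4 arrays) were female C57BL/6 mice given the same kinds of cells from C57BL/6 donors. Both groups had been conditioned with busulfan and cyclophosphamide, drugs that damage DNA, so neither group shows unconditioned colon. Colon was digested with collagenase, and cells negative for CD45 and CD11b and positive for CD31 were sorted. Values are normalized log2 signals, on which a difference of 1 is a 2-fold change, and signal levels are not comparable between genes.

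A cell that divides first copies its DNA and then separates the copies. In S phase the MCM helicase, loaded at replication origins by CDC6 and CDT1, opens the double helix, and PCNA, a ring around DNA, holds the polymerases on it. In G2 and mitosis the kinase CDK1 with cyclins A and B drives the condensation of chromosomes and the building of the spindle, whose attachment to centromeres is watched by a checkpoint before the chromosomes part. E2F factors turn on many S phase genes, whereas promoters of many mitotic genes carry CHR elements, bound by MuvB complexes, and CCAAT boxes, bound by the factor NF-Y. Endothelium of adult organs divides rarely, whereas the crypts of the colon epithelium divide constantly.

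The promoters of the members with the smallest p-values in either class are shown here, and whether they bear on the array values was not tested. Sequences are from RefSeq (GRCm38.p6) and give the 120 bases before the start site, in the direction of transcription. Capitals mark matches on either strand to 1 of the E2F-type words TTCCCGC, then TTGGCGC, also TTCGCGC, and lastly TTGCCGC, to the CHR word TTTGAA, or to the box CCAAT. The E2F-type words can overlap one another. The S phase stretches are Mcm3 at chr1:20820313-20820432 (minus strand), Mcm7 at chr5:138171884-138172003 (minus strand), Uhrf1 at chr17:56303217-56303336 (plus strand) and Ccne1 at chr7:38107491-38107610 (minus strand).
Mcm3: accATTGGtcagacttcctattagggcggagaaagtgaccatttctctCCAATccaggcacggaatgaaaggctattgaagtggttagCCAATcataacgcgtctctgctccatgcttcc
Mcm7: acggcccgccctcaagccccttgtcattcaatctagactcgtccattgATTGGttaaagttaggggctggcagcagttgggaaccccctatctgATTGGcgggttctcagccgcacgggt
Uhrf1: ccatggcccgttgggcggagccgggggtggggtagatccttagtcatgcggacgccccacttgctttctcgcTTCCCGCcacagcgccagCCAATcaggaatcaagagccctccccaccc
Ccne1: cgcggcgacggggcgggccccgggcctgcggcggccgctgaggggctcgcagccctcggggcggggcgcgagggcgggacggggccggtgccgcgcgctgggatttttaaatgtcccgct
The G2/M stretches are Cdc20 at chr4:118437344-118437463 (minus strand), Nusap1 at chr2:119618178-119618297 (plus strand), Cdca8 at chr4:124936918-124937037 (minus strand) and Plk1 at chr7:122159315-122159434 (plus strand).
Cdc20: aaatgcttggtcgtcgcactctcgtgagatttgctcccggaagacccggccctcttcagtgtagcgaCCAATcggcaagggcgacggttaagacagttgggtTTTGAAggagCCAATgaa
Nusap1: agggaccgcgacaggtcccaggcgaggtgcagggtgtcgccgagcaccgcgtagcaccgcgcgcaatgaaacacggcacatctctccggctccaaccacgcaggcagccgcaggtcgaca
Cdca8: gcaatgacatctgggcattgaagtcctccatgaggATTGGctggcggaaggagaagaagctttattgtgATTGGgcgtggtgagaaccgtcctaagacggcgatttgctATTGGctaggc
Plk1: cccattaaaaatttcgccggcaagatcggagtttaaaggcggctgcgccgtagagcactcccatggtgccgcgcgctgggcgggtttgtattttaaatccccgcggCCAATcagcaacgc
In Cdc20 a CHR word stood between 2 CCAAT boxes, and Cdca8 had 3 CCAAT boxes in the stretch shown. The promoter of Uhrf1 carried an E2F-type word close to a CCAAT box, while the stretches of Ccne1 and Nusap1 held no match. Over the 250 bases before the start, CCAAT was found in 18 of the 22 G2/M members with a promoter in the table (81.8%), in 7 of 11 S phase members (63.6%) and in 35.6% of the promoters of 16990 tested genes. The CHR word was present in 7 of 22 G2/M promoters (31.8%), always together with CCAAT, in 1 of 11 S phase promoters (9.09%) and in 14.2% of the tested genes' promoters. E2F-type words were found in 2 of 22 G2/M promoters (9.09%), in 5 of 11 S phase promoters (45.5%) and in 10.1% of the tested genes' promoters. Promoters of Mcm5 and Mcm6 held 3 and 4 of them. Mki67, Top2a and Cdk1 each had 2 CHR words. For genes with several entries the first listed was used, and these matches are a description of the letters in the window.

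Mki67, which encodes the proliferation antigen Ki-67, averaged 10.04 in allogeneic and 10.18 in syngeneic arrays, and Pcna 10.57 and 10.63. Cdc25c, the phosphatase that activates CDK1, averaged 5.60 in allogeneic and 5.41 in syngeneic arrays. No detection call was at hand, and Y-linked genes, which these female recipients lack, reached at most 3.18. These were 3 genes, and since levels are not comparable between genes, they set no detection limit for the members.

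Arrays differed in their marker signals. Markers of endothelium gave signals on all arrays, and so did markers of colon epithelium, although the sort was for CD31. Of the endothelial markers 0 of 19 had a higher mean in allogeneic arrays, of the epithelial ones 19 of 19, and 0 of either passed in limma (at an unadjusted p below 0.05, 6 endothelial markers were lower and 7 epithelial ones higher, where 5.43% of all genes were lower and 7.81% higher). The mean of 19 endothelial markers was 7.74, 7.82, 8.43 and 8.45 on allogeneic arrays 1 to 4, against 8.35, 8.03, 9.11 and 9.97 on syngeneic arrays 1 to 4. Colon epithelial markers (19 genes) averaged 10.33, 10.21, 10.25 and 10.44 on allogeneic arrays and 10.12, 10.22, 9.90 and 9.61 on syngeneic arrays. Syngeneic arrays 3 and 4 therefore stood apart, highest in endothelial and lowest in epithelial and crypt markers. Without these 2 arrays, 10 endothelial markers were lower and 9 higher in allogeneic arrays, with a median log2 change of -0.002. Of the epithelial markers 7 were then lower and 12 higher, with a median of 0.05. Crypt stem and transit markers (11 genes) averaged 7.23 to 7.43 on allogeneic arrays, against 6.66 to 7.36 on syngeneic arrays. Of these, 10 had a higher and 1 a lower mean in allogeneic arrays, with a median log2 change of 0.37. In limma 0 passed, and 4 were higher and 0 lower at an unadjusted p below 0.05, where 7.81% and 5.43% of all genes were. Without syngeneic arrays 3 and 4 their median was 0.11, with 7 positive and 4 negative. T and NK cell markers (9 genes) stayed between 4.23 and 4.60 on allogeneic arrays and between 4.25 and 4.44 on syngeneic arrays. In bulk samples such as these, fewer cells of a type and less RNA per cell cannot be told apart, and the cell type that gave the members' signal is not known.

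No member passed the test between donor types. In limma, 0 of 40 members passed an adjusted p of 0.05 in either direction, beside 0.356% of all genes called higher and 0.113% called lower in allogeneic arrays. At an unadjusted p below 0.05 there was 1 higher member, Nusap1, and 1 lower one, Cdc20, where 7.81% and 5.43% of all genes were higher and lower by that measure. The 2 groups overlapped in each of the 40 members, while 5.18% of all genes had every allogeneic array above, and 3.36% every one below, all syngeneic arrays. The number of arrays limits what this shows, but the 95% interval of the log2 change lay within a 2-fold difference either way for 39 of 40 members, against 91.7% of all genes. Nusap1 was the exception, with an upper end of 1.06. The change was smaller than the spread within groups (pooled SD) for 34 of 40 members (85.0%) and for 67.2% of all genes.

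**Figure D1:**
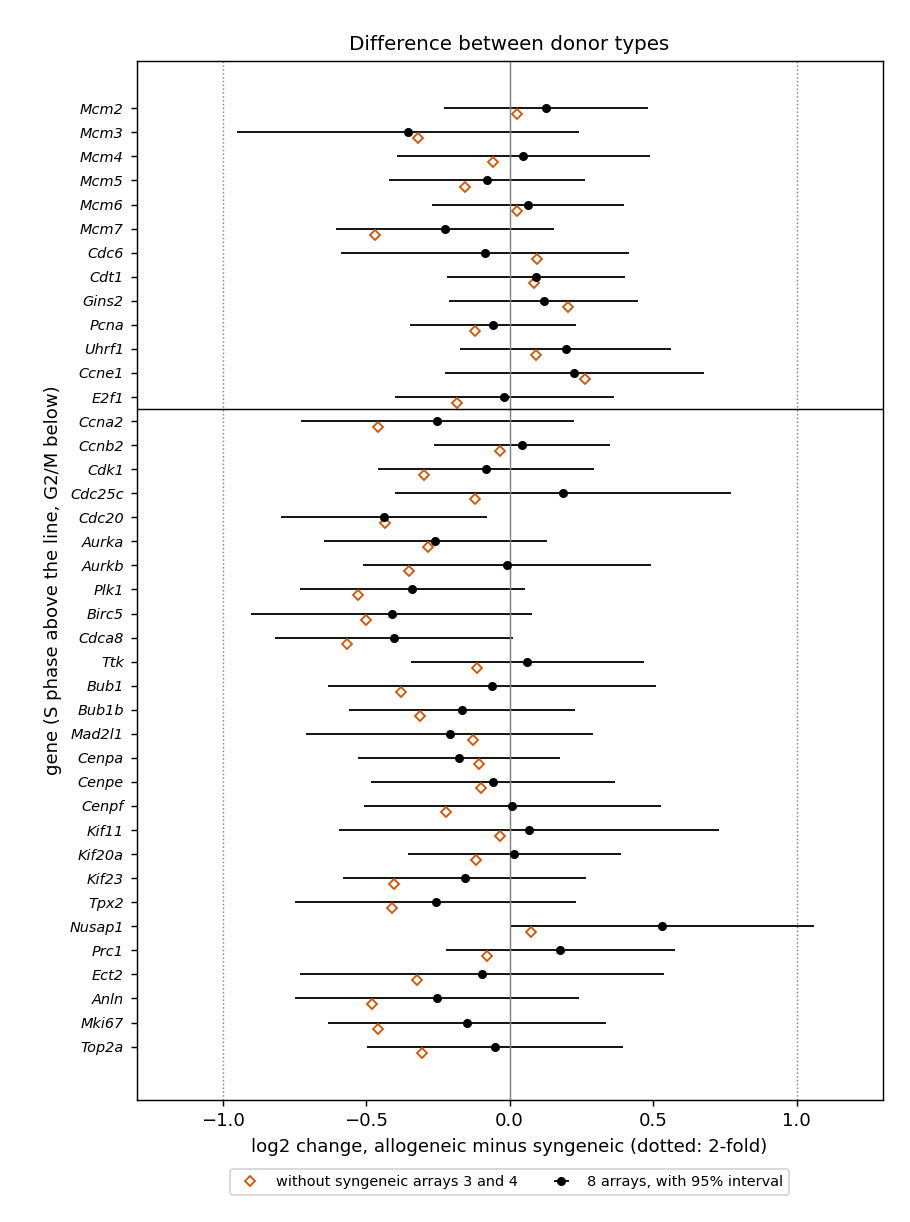
Log2 change between donor types (allogeneic minus syngeneic) of the 40 members, S phase genes above the line and G2/M genes below; filled points with 95% intervals are from all 8 arrays, open diamonds leave out syngeneic arrays 3 and 4. The intervals of 39 members end within the dotted lines at 2-fold, and 26 of the 27 G2/M diamonds lie left of 0.

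The S phase genes had a median log2 change of 0.05 (allogeneic minus syngeneic), 7 of 13 positive and 6 negative, beside a median of -0.01 over all genes. Their array means were 7.95, 7.60, 7.94 and 7.49 in allogeneic arrays 1 to 4 and 7.74, 7.83, 7.75 and 7.65 in syngeneic arrays 1 to 4. Allogeneic arrays thus averaged 7.75 ± 0.24, against 7.74 ± 0.07 for syngeneic ones (SD, n = 4 each). The wider spread was that of the allogeneic arrays, with replicates 1 and 3 above, and replicates 2 and 4 below, all syngeneic arrays. The sign of the median rested on single arrays: it was -0.05 without allogeneic array 1, -0.02 without allogeneic array 3 and -0.04 without syngeneic array 4. Leaving out allogeneic array 2 or 4 gave 0.12 in either case.

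Among the 9 genes of origin licensing and the helicase, 5 had positive and 4 negative changes, between -0.36 and 0.13. Mcm3, a helicase subunit, had log2 signals of 7.97, 7.64, 8.07 and 6.67 in allogeneic arrays, against 8.09, 7.73, 7.94 and 8.02 in syngeneic arrays. Its low value on allogeneic array 4 set the difference (-0.36 ± 0.27 SE, limma adjusted p = 0.631), which was -0.05 at its smallest when 1 array was left out. Mcm7, of the same ring, had 7.44, 7.14, 7.46 and 7.08 in allogeneic arrays, and 7.77, 7.73, 7.33 and 7.20 in syngeneic arrays. Syngeneic arrays 1 and 2 lay above all allogeneic arrays for Mcm7, and 3 and 4 within their range (-0.22 ± 0.17 SE, limma adjusted p = 0.633). Gins2, part of the complex that activates the helicase, had 7.08, 6.92, 7.18 and 6.66 in allogeneic arrays and 6.76, 6.76, 7.00 and 6.86 in syngeneic arrays. The groups overlapped for Gins2 (0.12 ± 0.15 SE, limma adjusted p = 0.794). Of the licensing factors, Cdc6 averaged 6.96 in allogeneic and 7.05 in syngeneic arrays, and Cdt1 6.41 and 6.32.

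Pcna had log2 signals of 10.76, 10.23, 10.79 and 10.50 in allogeneic arrays, against 10.75, 10.63, 10.44 and 10.69 in syngeneic arrays. With a change of -0.06 ± 0.13 (SE, limma adjusted p = 0.898) and a 95% interval from -0.35 to 0.23, it was among the most tightly measured members. Uhrf1, which carries DNA methylation over to the new strand, had 8.19, 7.66, 8.31 and 7.81 in allogeneic arrays and 7.94, 7.87, 7.60 and 7.78 in syngeneic arrays. Only allogeneic arrays 1 and 3 were above the syngeneic range for Uhrf1 (0.20 ± 0.17 SE, limma adjusted p = 0.673). Ccne1, the cyclin that starts S phase, had 6.60, 6.37, 6.95 and 6.76 in allogeneic arrays, against 6.02, 6.80, 6.24 and 6.73 in syngeneic arrays. It varied as much within a group as between groups (0.23 ± 0.20 SE, limma adjusted p = 0.696). The transcription factor gene E2f1 had 6.27, 6.00, 6.15 and 6.21 in allogeneic arrays and 6.38, 6.30, 6.33 and 5.69 in syngeneic arrays, and the group means were 6.16 and 6.17. Here syngeneic array 4 was the low one.

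The G2/M genes had a median log2 change of -0.10, 8 of 27 positive and 19 negative. Their array means were 8.09, 7.75, 8.16 and 7.44 in allogeneic arrays 1 to 4, against 8.04, 8.23, 7.81 and 7.76 in syngeneic arrays 1 to 4. Allogeneic arrays averaged 7.86 ± 0.33, against 7.96 ± 0.22 for syngeneic ones (SD, n = 4 each), and the difference was smaller than either SD. Allogeneic array 4 was the lowest of the 8 arrays and syngeneic array 2 the highest. The median depended on these 2 arrays: it was 0.03 without allogeneic array 4 and 0.01 without syngeneic array 2.

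**Figure D2:**
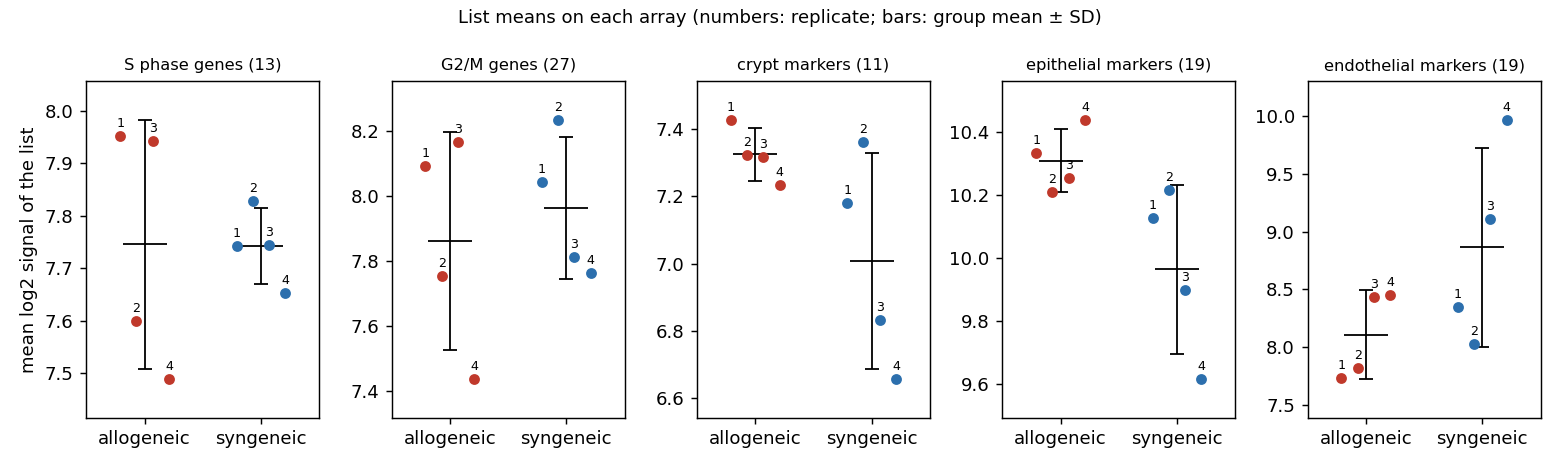
Mean log2 signal of S phase genes, G2/M genes and 3 marker lists on each array, with the replicate number beside each point and bars for the group mean ± SD (n = 4 arrays). The vertical axes differ between panels. Allogeneic array 4 is lowest for both classes of members and highest for epithelial markers, and syngeneic arrays 3 and 4 are highest for endothelial markers.

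Among the mitotic cyclins and their partners, Cdc20 came closest to a difference. It encodes the activator of the anaphase-promoting complex, and had log2 signals of 8.85, 8.79, 9.20 and 8.36 in allogeneic arrays, against 9.24, 9.23, 9.32 and 9.17 in syngeneic arrays. The 4 syngeneic arrays lay close together, and 3 of the 4 allogeneic arrays lay below all of them (-0.44 ± 0.16 SE, limma adjusted p = 0.273). Without allogeneic array 4 its change was -0.29. Ccna2, the cyclin of S phase and early mitosis, had 8.90, 8.56, 9.18 and 8.13 in allogeneic arrays and 9.07, 9.23, 8.75 and 8.72 in syngeneic arrays. The groups overlapped for Ccna2 (-0.25 ± 0.22 SE, limma adjusted p = 0.675), and without allogeneic array 4 its change was -0.07. Cdc25c had 5.78, 5.09, 6.11 and 5.42 in allogeneic arrays, against 5.40, 6.04, 4.93 and 5.29 in syngeneic arrays, without a separation of the groups (0.19 ± 0.26 SE, limma adjusted p = 0.825). Cdk1 (-0.08) and Ccnb2 (0.04) had group means within 0.1 of each other.

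All 5 genes of mitotic kinases and of the chromosomal passenger complex, which corrects faulty spindle attachments, had negative log2 changes, with a median of -0.34. Without allogeneic array 4 the median was -0.18 and 4 of the 5 were negative. Cdca8, which encodes the subunit borealin, had log2 signals of 7.52, 6.97, 7.64 and 7.07 in allogeneic arrays, against 7.70, 8.02, 7.60 and 7.48 in syngeneic arrays. Only allogeneic arrays 2 and 4 were below the syngeneic range (-0.40 ± 0.19 SE, limma adjusted p = 0.397). Birc5, the gene of the subunit survivin, had 7.67, 7.62, 7.63 and 6.70 in allogeneic arrays and 7.73, 8.08, 7.60 and 7.85 in syngeneic arrays. Without allogeneic array 4 its change of -0.41 ± 0.22 (SE, limma adjusted p = 0.465) was -0.18. Plk1, a kinase needed for spindle poles and mitotic entry, had 9.69, 9.34, 9.80 and 9.16 in allogeneic arrays, against 9.90, 10.15, 9.84 and 9.45 in syngeneic arrays. Syngeneic arrays 1 to 3 were above all allogeneic arrays for Plk1, and array 4 was not (-0.34 ± 0.18 SE, limma adjusted p = 0.454). Its change without allogeneic array 4 was -0.23. The other genes of this group were Aurka (-0.26) and Aurkb (-0.01), the Aurora kinases of spindle poles and of the passenger complex.

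The 4 spindle checkpoint genes had changes between -0.21 and 0.06. Mad2l1, whose product holds back the anaphase-promoting complex, had 9.24, 8.83, 9.38 and 8.21 in allogeneic arrays and 8.88, 9.21, 9.17 and 9.24 in syngeneic arrays. Its difference of -0.21 ± 0.23 (SE, limma adjusted p = 0.754) was 0.03 without allogeneic array 4. Bub1b had 6.66, 6.40, 6.60 and 6.00 in allogeneic arrays, against 6.62, 6.84, 6.37 and 6.50 in syngeneic arrays. The kinase gene Ttk had 7.08, 6.54, 6.99 and 6.88 in allogeneic arrays and 6.83, 7.15, 6.86 and 6.41 in syngeneic arrays. For both checkpoint genes the groups overlapped.

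The 3 centromere genes had changes between -0.18 and 0.01. Cenpa, the histone that marks centromeres, had 7.71, 7.59, 7.69 and 7.32 in allogeneic arrays, against 7.60, 7.77, 7.55 and 8.10 in syngeneic arrays. It was the only G2/M gene with its highest value of the 8 arrays on syngeneic array 4 (-0.18 ± 0.16 SE, limma adjusted p = 0.692). The kinetochore motor gene Cenpe had 7.25, 6.97, 7.28 and 6.56 in allogeneic arrays and 6.94, 7.29, 7.26 and 6.81 in syngeneic arrays. Cenpf had 6.85, 6.13, 6.79 and 5.95 in allogeneic arrays, against 6.59, 6.72, 6.32 and 6.06 in syngeneic arrays, and its group means were 6.43 and 6.42.

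Of the 8 genes of spindle and cytokinesis, 4 had positive and 4 negative changes. Nusap1, a microtubule-binding spindle protein, had the largest positive change of the members, with log2 signals of 8.76, 8.58, 8.76 and 8.32 in allogeneic arrays, against 8.56, 8.50, 7.49 and 7.75 in syngeneic arrays. Syngeneic arrays 1 and 2 lay within the allogeneic range and syngeneic arrays 3 and 4 far below it (0.53 ± 0.24 SE, limma adjusted p = 0.377). Without those arrays the change of Nusap1 was 0.07. Anln, a scaffold of the contractile ring, had 7.53, 6.68, 7.30 and 6.65 in allogeneic arrays and 7.58, 7.46, 7.05 and 7.09 in syngeneic arrays (-0.25 ± 0.22 SE, limma adjusted p = 0.687). Tpx2, which activates Aurora A at the spindle, had 7.80, 7.16, 7.81 and 6.88 in allogeneic arrays, against 7.89, 7.75, 7.64 and 7.40 in syngeneic arrays (-0.26 ± 0.22 SE, limma adjusted p = 0.677). For both, allogeneic arrays 2 and 4 were below all syngeneic arrays and the other allogeneic arrays were not. Without allogeneic array 4 the change was -0.12 for Anln and -0.08 for Tpx2. Kif11, the motor that pushes spindle poles apart, had the widest allogeneic spread of the G2/M genes, an SD of 0.67 against 0.31 in syngeneic arrays.

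Mki67 had log2 signals of 10.29, 10.03, 10.33 and 9.50 in allogeneic arrays, against 10.45, 10.54, 10.04 and 9.71 in syngeneic arrays. The lowest array of each group was replicate 4, and the groups overlapped (-0.15 ± 0.22 SE, limma adjusted p = 0.831). Top2a, the topoisomerase that untangles the copied chromosomes, had 8.39, 7.89, 8.36 and 7.73 in allogeneic arrays and 8.34, 8.45, 8.02 and 7.76 in syngeneic arrays. The allogeneic arrays averaged 8.09 ± 0.33 and the syngeneic ones 8.14 ± 0.31 (SD, n = 4 each).

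**Figure D3:**
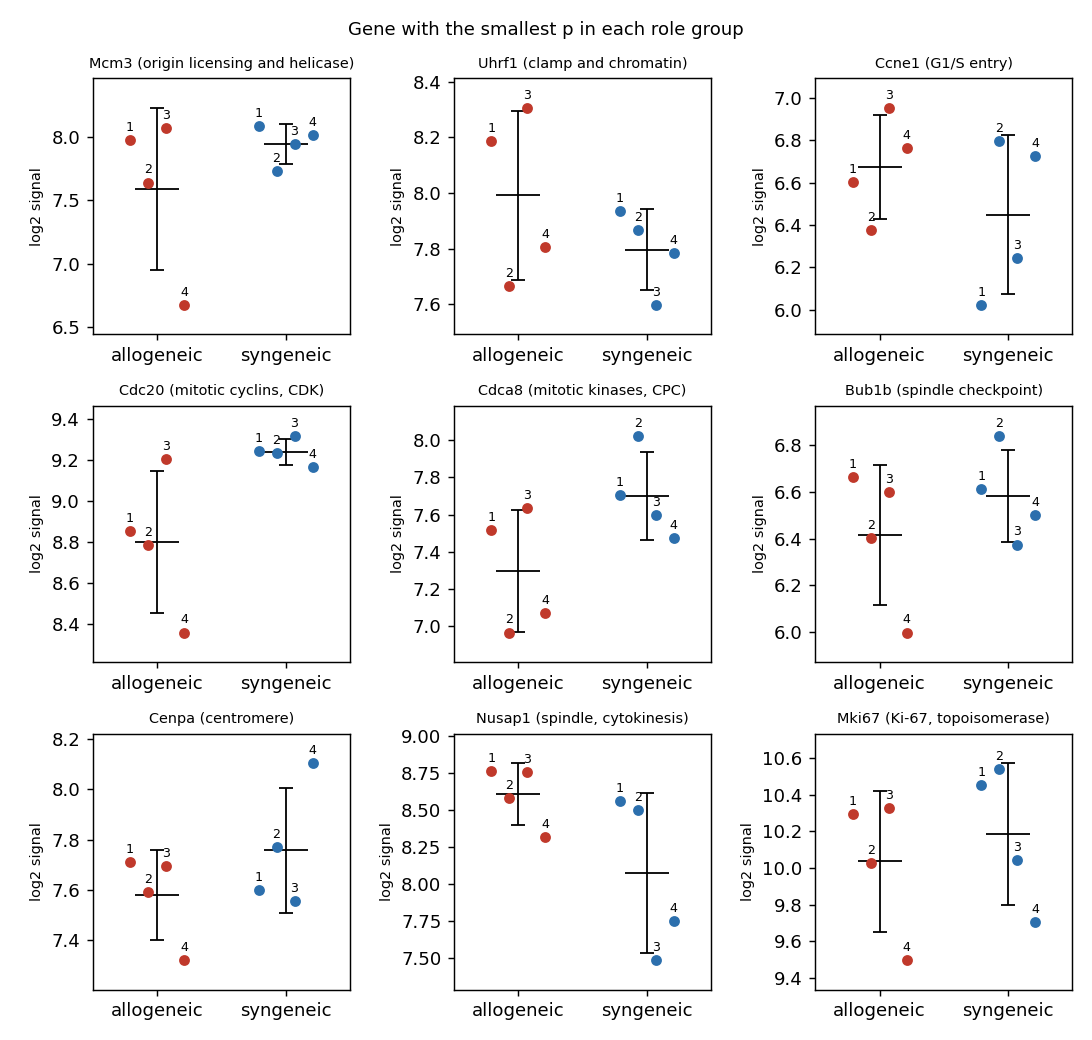
Log2 signal on each array of the gene with the smallest p-value in each of the 9 role groups, with the replicate number beside each point and bars for the group mean ± SD (n = 4 arrays). The vertical axes differ between panels and do not start at 0. The groups overlap in all 9 genes, and Nusap1 has its low values on syngeneic arrays 3 and 4.

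Members differed more from array to array than between donor types, and many were low or high on the same arrays. Among the 4 allogeneic arrays, array 4 was the lowest for 23 of 27 G2/M genes and for 7 of 13 S phase genes, where it was the lowest for 26.8% of all genes. Allogeneic arrays 1 and 3 were the lowest for 0 of 40 members, and arrays 2 and 4 were the highest for 1 and 0 of 40. Over all 8 arrays, allogeneic array 4 was the lowest for 18 G2/M and 7 S phase genes, against 12.9% of all genes. On that array the median G2/M gene was 0.50 below its own 8-array mean and the median S phase gene 0.24 below. This array had the highest epithelial marker mean of the 8 (10.44) and an endothelial marker mean of 8.45. Its crypt mean of 7.23 was the lowest of the allogeneic arrays and above those of syngeneic arrays 1, 3 and 4 (7.18, 6.83 and 6.66). Allogeneic array 4 also had the highest mean of 10 pericyte and fibroblast markers, 8.51 against 7.68 to 7.95 on the other allogeneic arrays and 7.61 to 8.18 on syngeneic arrays. Whether any of these cell type signals had a part in the low values of the members was not tested.

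In the syngeneic group, array 2 was the highest for 19 of 27 G2/M genes and for 4 of 13 S phase genes, where it was the highest for 26.1% of all genes. The lowest was array 4 for 17 and array 3 for 8 of the 27. On arrays 4 and 3 the median deviation from a gene's own 8-array mean was -0.20 and -0.07 for G2/M genes. For all genes it was -0.02 and -0.002. These 2 arrays had the highest endothelial and the lowest epithelial and crypt means, given above, and their part in the lower G2/M values was not tested. Within-group SDs had a median of 0.34 in allogeneic and 0.29 in syngeneic arrays for G2/M genes, of 0.26 and 0.15 for S phase genes, and of 0.18 and 0.22 for all genes.

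**Figure D4:**
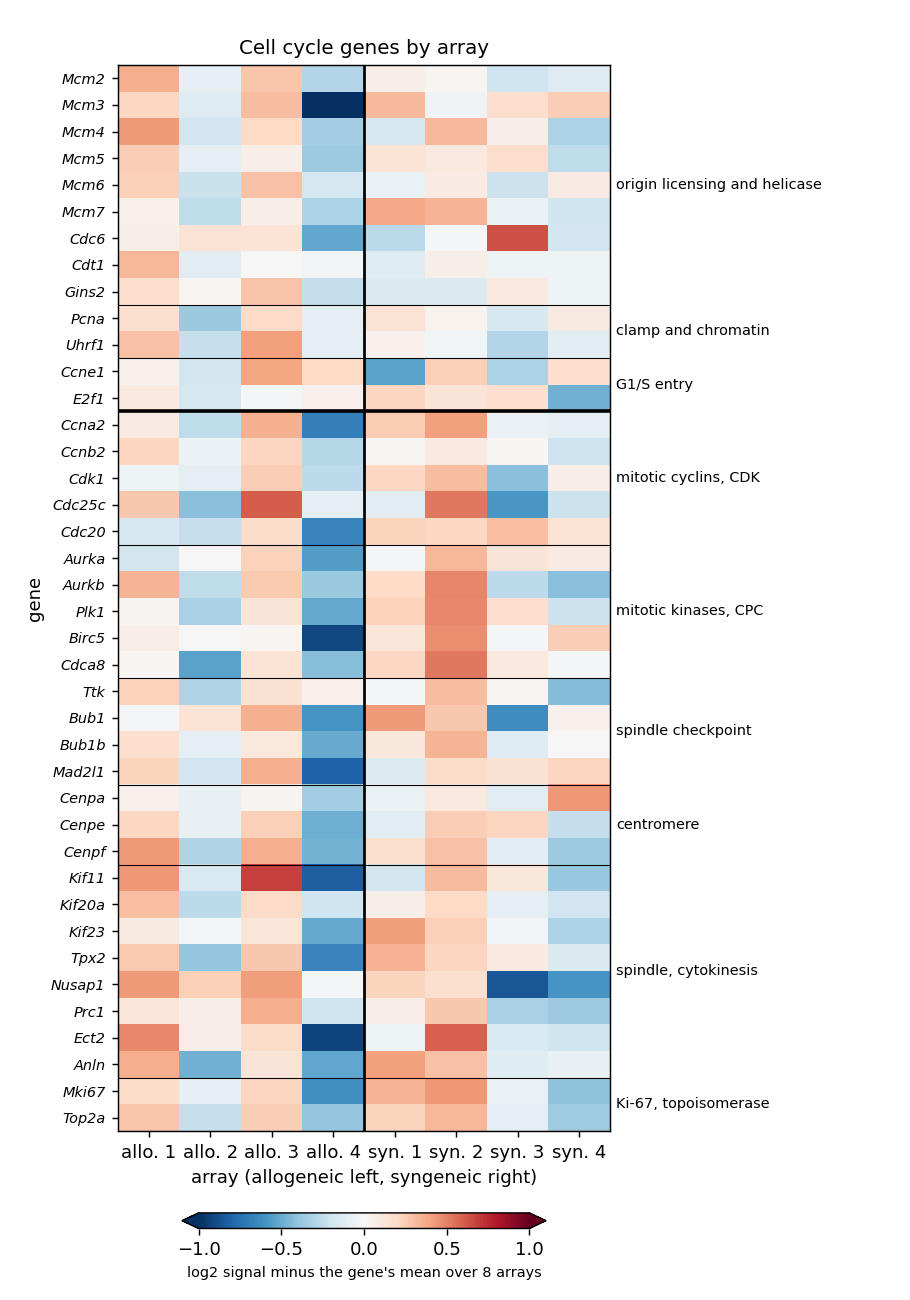
Log2 signal of each member on each array, minus the gene's mean over the 8 arrays, with allogeneic arrays left of the vertical line and syngeneic arrays right of it; the thick horizontal line parts S phase genes (above) from G2/M genes. Values beyond 1 in size take the end colour. The column of allogeneic array 4 is blue for most G2/M genes, and those of allogeneic arrays 1 and 3 and syngeneic array 2 are mostly red.

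Leaving out syngeneic arrays 3 and 4 parted the 2 classes further. Since these 2 arrays held the lowest syngeneic value of most G2/M genes, leaving them out by itself moved most G2/M changes downward. The median change of the S phase genes was then 0.03, with 7 of 13 positive, and that of the G2/M genes -0.30, with 26 of 27 negative. Over all genes the median was -0.00, with 11098 of 22180 negative. Still 0 of 40 members passed an adjusted p of 0.05 in limma, where 0.117% of all genes were called higher and 0.0541% lower. At an unadjusted p below 0.05 were 3 lower members, Plk1 (-0.53), Cdca8 (-0.57) and Mcm7 (-0.47), and 0 higher ones, where 4.52% of all genes were lower and 6.2% higher. Their limma adjusted p-values were 0.322, 0.390 and 0.335. Mki67 was at -0.46 and Cdc20 at -0.44 in that fit (limma adjusted p = 0.473 and 0.485), with 4 allogeneic against 2 syngeneic arrays. In mean G2/M signal, allogeneic arrays 2 and 4 (7.75 and 7.44) lay below both remaining syngeneic arrays (8.04 and 8.23), and allogeneic arrays 1 and 3 (8.09 and 8.16) lay between them. With the epithelial marker mean as a covariate on all 8 arrays the median change of the G2/M genes was -0.25, and with the endothelial mean it was -0.31, while that of the S phase genes was 0.05 and -0.05. At an unadjusted p below 0.05 in limma, 3 members were lower and 0 higher with the epithelial covariate, beside 3.09% and 4.13% of all genes. With the endothelial covariate 6 members were lower and 0 higher, beside 4.04% and 6.13% of all genes, and 0 members passed an adjusted p of 0.05 with either. The lower members were 2 G2/M genes and 1 S phase gene with the epithelial covariate, and 5 and 1 with the endothelial covariate. Endothelial means were highest and epithelial means lowest on syngeneic arrays 3 and 4, so these fits are not independent of the one without those arrays.

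S phase and G2/M signals were also set against each other within each array. The S phase mean minus the G2/M mean was -0.14, -0.15, -0.22 and 0.05 in allogeneic arrays 1 to 4 and -0.30, -0.40, -0.07 and -0.11 in syngeneic arrays 1 to 4. Its sign has no meaning, since levels of different probe sets are not comparable. The highest value was that of allogeneic array 4, and the lowest were those of syngeneic arrays 1 and 2. It averaged -0.12 ± 0.12 over the allogeneic and -0.22 ± 0.16 over the syngeneic arrays (SD, n = 4 each), and the ranges overlapped.

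Other genes of the cell cycle, 123 measured in 5 lists, gave 0 calls at an adjusted p of 0.05 in limma. Of 41 further replication genes, 20 had positive and 21 negative changes, with a median of -0.01, and 1 higher and 2 lower genes had an unadjusted p below 0.05, where 7.81% and 5.43% of all genes were higher and lower by that measure. Rrm2, the subunit of ribonucleotide reductase made in S phase, had 6.87, 6.60, 6.86 and 6.00 in allogeneic arrays, against 7.25, 6.93, 7.08 and 7.24 in syngeneic arrays. Its groups did not overlap, as was so for 1 higher and 2 lower of the 41 genes, and for 5.18% and 3.36% of all genes (-0.54 ± 0.20 SE, limma adjusted p = 0.270). Pola2, a subunit of the priming polymerase, had a change of -0.35 and Rfc1, of the complex that loads PCNA, one of 0.39, also without overlap of the groups (limma adjusted p = 0.245 and 0.310). Of 43 further mitosis genes, 20 were positive and 23 negative, with a median of -0.03, and 0 higher and 1 lower had an unadjusted p below 0.05. Without syngeneic arrays 3 and 4 their median was -0.24, with 37 of 43 negative. With the epithelial covariate it was -0.21, and with the endothelial one -0.22. The further replication genes had a median of -0.06 without syngeneic arrays 3 and 4, with 25 of 41 negative. Mybl2, a transcription factor of mitotic genes, was at -0.55 ± 0.23 (SE, limma adjusted p = 0.336), Foxm1, another one, at -0.31 and the kinase gene Pbk at 0.25. Allogeneic array 4 was the lowest of the allogeneic arrays for 31 of these 43 genes and for 27 of the 41.

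The G1 cyclins, their kinases and MYC genes had 6 positive and 4 negative changes in 10 genes. Groups did not overlap for 0 higher and 2 lower of the 10, beside 5.18% and 3.36% of all genes. At an unadjusted p below 0.05 in limma, 0 were higher and 2 lower, beside 7.81% and 5.43% of all genes. Ccnd1, the cyclin that carries growth signals into the cycle, averaged 8.99 ± 0.20 over allogeneic and 9.32 ± 0.10 over syngeneic arrays (SD, n = 4 each), without overlap of the groups (-0.32 ± 0.12 SE, limma adjusted p = 0.296). Myc was at -0.35 and the phosphatase gene Cdc25b at 0.42 (limma adjusted p = 0.290 and 0.461). Among 16 genes of the E2F and RB families, 10 were negative. Groups did not overlap for 1 higher and 3 lower of the 16, and 1 higher and 2 lower had an unadjusted p below 0.05 in limma. The shares of all genes are those just given. E2f7, a repressor of E2F targets, had 6.69, 6.40, 6.34 and 5.63 in allogeneic arrays and 6.89, 6.91, 7.13 and 7.14 in syngeneic arrays. It was below all syngeneic arrays on each allogeneic array and did not pass (-0.75 ± 0.21 SE, limma adjusted p = 0.152). E2f2 had 6.19, 5.71, 6.02 and 5.62 in allogeneic arrays, against 6.51, 6.44, 6.75 and 6.32 in syngeneic arrays, again without overlap (limma adjusted p = 0.142). Tfdp2, a partner of E2F factors, was at 0.50 (limma adjusted p = 0.158).

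Inhibitors of cyclin-dependent kinases and other antiproliferative genes had 8 positive and 5 negative changes, with a median of 0.10. Groups did not overlap for 1 higher and 0 lower of the 13 measured, beside 5.18% and 3.36% of all genes. At an unadjusted p below 0.05 in limma, 3 were higher and 0 lower, beside 7.81% and 5.43% of all genes. Ccng1, a cyclin G gene induced by p53, had 10.67, 10.66, 10.64 and 10.44 in allogeneic arrays, against 10.23, 10.09, 10.02 and 10.50 in syngeneic arrays. Only syngeneic array 4 reached the allogeneic range (0.39 ± 0.12 SE, limma adjusted p = 0.166). Cdkn1b, which encodes the inhibitor p27, had 7.18, 7.37, 7.25 and 7.34 in allogeneic arrays and 7.08, 6.90, 6.26 and 6.91 in syngeneic arrays. Its groups did not overlap, and it did not pass (0.50 ± 0.18 SE, limma adjusted p = 0.263). Cdkn2c, the gene of the inhibitor p18, was at 0.43 (limma adjusted p = 0.360).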

How the data were processed

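The deposited values are log2 signals of probe sets. The submitters' processing notes name Affymetrix Expression Console 1.4.1 and RMA, which the authors ran before deposit. That method includes quantile normalization, which gives all arrays the same distribution of values. The probe annotation behind the values is not given in the sources used here. Of 41345 probe sets 23521 had exactly 1 gene symbol in the platform annotation, 1814 had several and 16010 had none, and the first kind was used. Where a gene had several probe sets, the one of highest average signal was kept, which left 22180 genes.

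Groups and replicate numbers came from the sample titles, which call the samples biological replicates. A linear model with the donor type was fitted to all genes in R 4.3.3 by the package limma 3.58.1, using lmFit and then eBayes with its trend option. Adjustment over the 22180 genes followed Benjamini and Hochberg, and 0.05 was the threshold. The procedure was tested on simulated data with changes of 2-fold or more, in genes that varied independently. That test does not tell how often changes as small as those of the members would be called. No batch was given, so none was modelled. The members and all gene lists were chosen with earlier results of these data known, so no p-value is given for a list. Values per array are given for the 3 smallest p-values in each of 9 role groups, and up to 3 genes of each of 5 further lists are named. Cdc6, Cdt1, Cdk1, Ccnb2, Aurka, Aurkb, Kif11, Mcm5 and Mcm6 were named besides. Alternatives covered the variance prior, scaling, a filter on dim genes, the replicate number as a block, the rule for several probe sets, weights per array, arrays left out, and marker means as covariates. The fits without syngeneic arrays 3 and 4 and with these covariates were planned with syngeneic arrays 3 and 4 known to stand apart. Markers of 10 cell types were summarized, and those not given in the results are given with the other observations.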

Additional observations from a re-analysis of the deposited data

Results flagged for a closer look

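In 3 of 102 sets of 4 arrays, taken over the 40 members and the means of their classes and role groups, 1 array stood far from the other 3. Chance flags about 1 set in 20. Birc5 had 6.70 on allogeneic array 4, where the other allogeneic arrays lay between 7.62 and 7.67, a gap of 0.941 of the whole range. Cdc6, the loader of the MCM helicase, had 6.49 on the same array, against 7.07 to 7.15 on the others, a gap of 0.875 of the range. E2f1 had 5.69 on syngeneic array 4, where the other syngeneic arrays lay between 6.30 and 6.38, a gap of 0.880 of the range.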

How the results depend on the processing

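In none of 18 alternative fits with limma did a member pass an adjusted p of 0.05, and the smallest adjusted p of a member in any of them was 0.159. Over all genes, 79 higher and 25 lower calls in the fit as reported became 138 and 55 with dim genes left out, 26 and 12 without syngeneic arrays 3 and 4, 4 and 3 with the epithelial mean as a covariate, and 19 and 9 with the endothelial mean. With the replicate block there were 40 higher calls, and with array weights 39 lower ones. Leaving out 1 array gave 4 to 145 higher and 4 to 35 lower calls. Same-numbered arrays of the 2 groups correlated in their deviations by -0.10 to 0.10, and differently numbered ones by -0.15 to 0.12. Whether same-numbered arrays shared a day or batch is not given in the labels and cannot be read from these correlations. With the replicate number as a block, no call of a member changed.

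The S phase median minus the G2/M median, 0.14 as reported, was 0.33 without syngeneic arrays 3 and 4, 0.29 with the epithelial covariate and 0.26 with the endothelial one, and 0.08 to 0.27 when 1 array was left out. With 1 array left out, the S phase median ranged from -0.05 to 0.12 and the G2/M median from -0.21 to 0.03. The G2/M median was -0.25 with the epithelial and -0.31 with the endothelial covariate, and the S phase median 0.05 and -0.05. The signs of several small changes turned. In the fits without syngeneic arrays 3 and 4 and with the epithelial covariate, Cdc25c was at -0.12 and -0.14. In these and with the endothelial covariate, Ttk was at -0.11, -0.30 and -0.12 and Cenpf at -0.22, -0.26 and -0.24. With the epithelial covariate alone, Mad2l1 was at 0.016 and Cenpa at 0.057. With 1 array left out, the change ranged from -0.13 to 0.055 for Pcna, -0.18 to 0.051 for E2f1, -0.072 to 0.17 for Ttk, -0.36 to 0.026 for Mad2l1, -0.15 to 0.094 for Cenpe, -0.13 to 0.17 for Cenpf, -0.31 to 0.032 for Mki67 and -0.18 to 0.070 for Top2a. The cause of these shifts was not tested.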

Other observations

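Markers of blood and goblet cells were summarized on each array. Myeloid markers (9 genes) averaged 4.97, 4.89, 5.56 and 5.21 on allogeneic arrays 1 to 4, against 5.70, 5.68, 5.56 and 5.40 on syngeneic arrays 1 to 4. Among them S100a8, a neutrophil gene, was the marker called lower, with a log2 change of -1.94 (limma adjusted p = 0.00424, n = 4 each), and it was named after its value was seen. Mast cell markers (7 genes) averaged 4.12 in allogeneic and 4.45 in syngeneic arrays, and the 2 measured erythroid markers 4.08 and 4.11. B and plasma cell markers (6 genes) averaged 5.92 in allogeneic and 5.77 in syngeneic arrays, and goblet cell markers (7 genes) 10.67 and 10.42.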
